A study of Mus musculus with 24 samples.

Results

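The S phase and DNA replication genes described here are a fixed set of 34 genes among 34111 in the deposited count table, in splenic T cells of mice with and without a transplanted B-cell lymphoma. They were picked by function: genes that start S phase, load and fire replication origins, copy and join DNA at the fork, supply nucleotides, or handle chromatin behind the fork. The choice was made with earlier results of these data known, so comparisons of members with other genes are not independent of the data. Stmn1, a tubulin-binding gene that is high in dividing cells, is also a member. All 34 were found in the table by symbol, and all 34 passed the filter on low counts in every fit.

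DNA replication begins with licensing in G1, when Cdc6 and Cdt1 load the Mcm helicase onto origins. Cdc45 and the GINS complex then switch the helicase on, and polymerases, the clamp and the ligase copy the strands while ribonucleotide reductase and thymidylate enzymes make the nucleotides. Most of these genes are targets of E2F transcription factors, which the RB family holds back in resting cells, so resting T cells carry little of their mRNA and dividing T cells carry more.

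The libraries fell into 8 groups of 3. They came from Atm-/- (KO) mice with a transplanted B-cell lymphoma, KO control mice without one, Atmwt/wt (WT) mice with lymphoma and WT control mice, each as CD8 and as CD4 libraries. Atm encodes the kinase that signals DNA double-strand breaks. All mice were C57BL/6N. The EasySep kit was used to isolate splenic T cells, and 3′ tag libraries were made from polyadenylated RNA. Each library was a pool of 1 to 3 mice, 12 pools and 22 mice in all. The WT lymphoma pools held 1 mouse each and the others 2 or 3, and the CD4 and CD8 libraries of 1 number in a group came from the same mice. Not stated in the sources used here are the age and sex of the mice, the time after transplantation, the genotype of the lymphoma and how CD4 and CD8 cells were separated. Because the tissue was measured in bulk, more dividing cells and more RNA per cell cannot be told apart.

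Library totals ran from 6470482 to 10196062 estimated counts, with 15263 to 17707 genes detected. A member summed to between 448 counts over the 24 libraries (Gins1) and 44397 (Stmn1), and levels are given in CPM, counts scaled by the library total. Atm stood at 26.9 to 107 CPM in KO libraries and at 117 to 210.3 CPM in WT libraries, lower in KO but not absent. The sources used here do not say whether the 3′ tags lie in the deleted part of the gene, so the level does not check the labels. Summed Cd8a and Cd8b1 lay at 317 to 1206 CPM in CD8 libraries and at 15.9 to 62.3 CPM in CD4 libraries, and summed Cd4 and Zbtb7b at 4.07 to 30.8 CPM in CD8 and 132 to 235 CPM in CD4 libraries, as labelled. Summed Y-linked Ddx3y, Eif2s3y and Uty lay at 54.7 to 189 CPM in all WT control libraries. In the KO control, KO lymphoma and WT lymphoma groups, libraries 1 and 2 lay at 0.986 to 4.80 CPM and library 3 at 46.4 to 161 CPM. WT lymphoma and KO control groups thus differed from WT controls in Y-linked level, while KO lymphoma and KO control groups had the same pattern. The part of this difference in the results was not tested.

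Promoter sequence is shown because the members are known as E2F targets. RefSeq windows of 300 bases on GRCm38.p6, from 250 bases before to 50 after the start site, were found for 28 of the 34 genes; Ccne2, Mcm4, Gins1, Gins2, Pole and Stmn1 had no entry. The E2F words TTTCCCGC, TTTCGCGC, TTTGGCGC and TTTGCCGC were searched on both strands, and overlapping matches were kept. At least 1 word stood in 12 of 33 member windows (36.4%), in 15 of 54 windows of 45 other replication genes (27.8%) and in 744 of all 32851 windows (2.26%). The NF-Y word CCAAT stood in 19 of 33 member windows (57.6%), against 37.4% of all windows, and the CHR word TTTGAA in 3 of 33 (9.09%), against 17.9%. A match describes the letters in this window and nothing about binding. The windows below belong to the members that passed the adjusted threshold and had an entry, E2f1, Cdc45, Lig1 and Rrm1, and to Mcm3 and Mcm6, whose lymphoma and control libraries did not overlap in any lymphoma comparison; capitals mark E2F words on either strand. The windows are read 5′ to 3′ on the gene's strand: E2f1 at chr2:154569377-154569676 (minus), Cdc45 at chr16:18811923-18812222 (minus), Lig1 at chr7:13278576-13278875 (plus), Rrm1 at chr7:102441445-102441744 (plus), Mcm3 at chr1:20820263-20820562 (minus) and Mcm6 at chr1:128359656-128359955 (minus).
E2f1: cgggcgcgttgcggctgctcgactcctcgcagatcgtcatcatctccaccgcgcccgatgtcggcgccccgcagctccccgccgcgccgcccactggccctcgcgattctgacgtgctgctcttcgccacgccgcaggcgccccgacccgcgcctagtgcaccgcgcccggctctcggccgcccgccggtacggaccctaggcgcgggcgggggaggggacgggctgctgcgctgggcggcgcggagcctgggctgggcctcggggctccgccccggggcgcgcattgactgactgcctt
Cdc45: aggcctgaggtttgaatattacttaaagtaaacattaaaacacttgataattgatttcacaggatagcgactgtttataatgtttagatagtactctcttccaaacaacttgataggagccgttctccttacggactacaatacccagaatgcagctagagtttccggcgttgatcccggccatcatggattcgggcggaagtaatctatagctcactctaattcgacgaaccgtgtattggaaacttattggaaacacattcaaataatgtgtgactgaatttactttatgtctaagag
Lig1: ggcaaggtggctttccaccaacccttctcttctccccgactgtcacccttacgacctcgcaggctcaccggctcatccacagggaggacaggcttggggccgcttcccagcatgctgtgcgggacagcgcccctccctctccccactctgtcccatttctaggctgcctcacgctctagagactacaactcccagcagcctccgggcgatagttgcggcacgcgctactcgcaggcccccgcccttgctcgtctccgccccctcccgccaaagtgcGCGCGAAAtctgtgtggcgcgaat
Rrm1: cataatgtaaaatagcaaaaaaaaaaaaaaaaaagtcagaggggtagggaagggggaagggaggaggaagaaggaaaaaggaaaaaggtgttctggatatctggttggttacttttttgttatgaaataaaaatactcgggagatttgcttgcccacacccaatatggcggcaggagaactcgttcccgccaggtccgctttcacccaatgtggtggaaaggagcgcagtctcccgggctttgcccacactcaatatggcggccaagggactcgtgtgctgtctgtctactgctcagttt
Mcm3: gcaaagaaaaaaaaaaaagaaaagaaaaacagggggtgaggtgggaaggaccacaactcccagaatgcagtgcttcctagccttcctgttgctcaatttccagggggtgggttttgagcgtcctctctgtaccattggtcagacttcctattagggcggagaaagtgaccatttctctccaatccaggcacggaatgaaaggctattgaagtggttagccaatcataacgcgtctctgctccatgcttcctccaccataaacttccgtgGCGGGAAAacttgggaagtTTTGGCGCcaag
Mcm6: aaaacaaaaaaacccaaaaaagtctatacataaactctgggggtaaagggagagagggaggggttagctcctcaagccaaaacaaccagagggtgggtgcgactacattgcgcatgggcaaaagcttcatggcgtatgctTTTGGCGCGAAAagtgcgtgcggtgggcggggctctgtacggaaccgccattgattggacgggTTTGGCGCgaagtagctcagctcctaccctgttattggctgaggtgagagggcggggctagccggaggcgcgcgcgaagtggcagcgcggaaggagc
Lig1 had 3 RefSeq windows, and the 1 shown has the most GENCODE transcript starts within 100 bases of its start site. In the window shown, Lig1 held TTTCGCGC on the opposite strand, 26 to 33 bases after the start site. Mcm3 held 2 words within the 50 bases after its start site. Mcm6 held 3, of which 2 overlap, all before its start site. Cdc45, Rrm1 and E2f1 held none in these windows. No GENCODE transcript start lies within 100 bases of the RefSeq start of E2f1.

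In lymphoma-bearing mice against controls, the fitted changes of all 34 replication genes were positive in CD8 and CD4 libraries of KO and WT mice. Few passed the adjusted threshold. In CD8 libraries Gins2, Cdc45, Rrm1 and Lig1 rose in KO mice and E2f1 and Cdc45 rose in WT mice, and no member passed in CD4 libraries. Each of these calls was lost in 5 of 6 fits that left out 1 library. The members' median change, given below, was not smaller in CD4 than in CD8 libraries of either genotype. Whether the lymphoma effect differed between CD8 and CD4 libraries was not tested. Summed over the 34 genes, the level was 2416, 1419 and 2984 CPM in CD8 KO lymphoma libraries, against 1171, 1451 and 1091 CPM in CD8 KO controls. It was 1267, 1683 and 1949 CPM in CD8 WT lymphoma, against 1032, 929.7 and 1019 CPM in CD8 WT controls. In KO mice the lowest CD8 lymphoma library lay below the highest control, and in WT mice the groups did not overlap. In CD4 libraries the sums were 2029, 1344 and 4288 CPM in KO lymphoma, against 1196, 1539 and 1169 CPM in KO controls. They were 1289.6, 1693 and 2307 CPM in CD4 WT lymphoma, against 950.3, 811 and 961 CPM in CD4 WT controls. Overlap again occurred in KO and not in WT mice, and CD4 KO lymphoma library 3 stood far above the rest. Library 2 was the lowest of the KO lymphoma libraries for 33 of 34 members in CD8 and 32 in CD4, and library 1 the lowest of the WT lymphoma libraries for 31 in CD8 and 33 in CD4. Stmn1, Lig1 and Mcm4 together made 25.2% to 38.1% of the sum, and the 33 genes without Stmn1 averaged 1414 ± 254.5 CPM in CD8 WT lymphoma and 923 ± 51.2 CPM in CD8 WT control libraries (SD, n = 3 each).

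**Figure D1:**
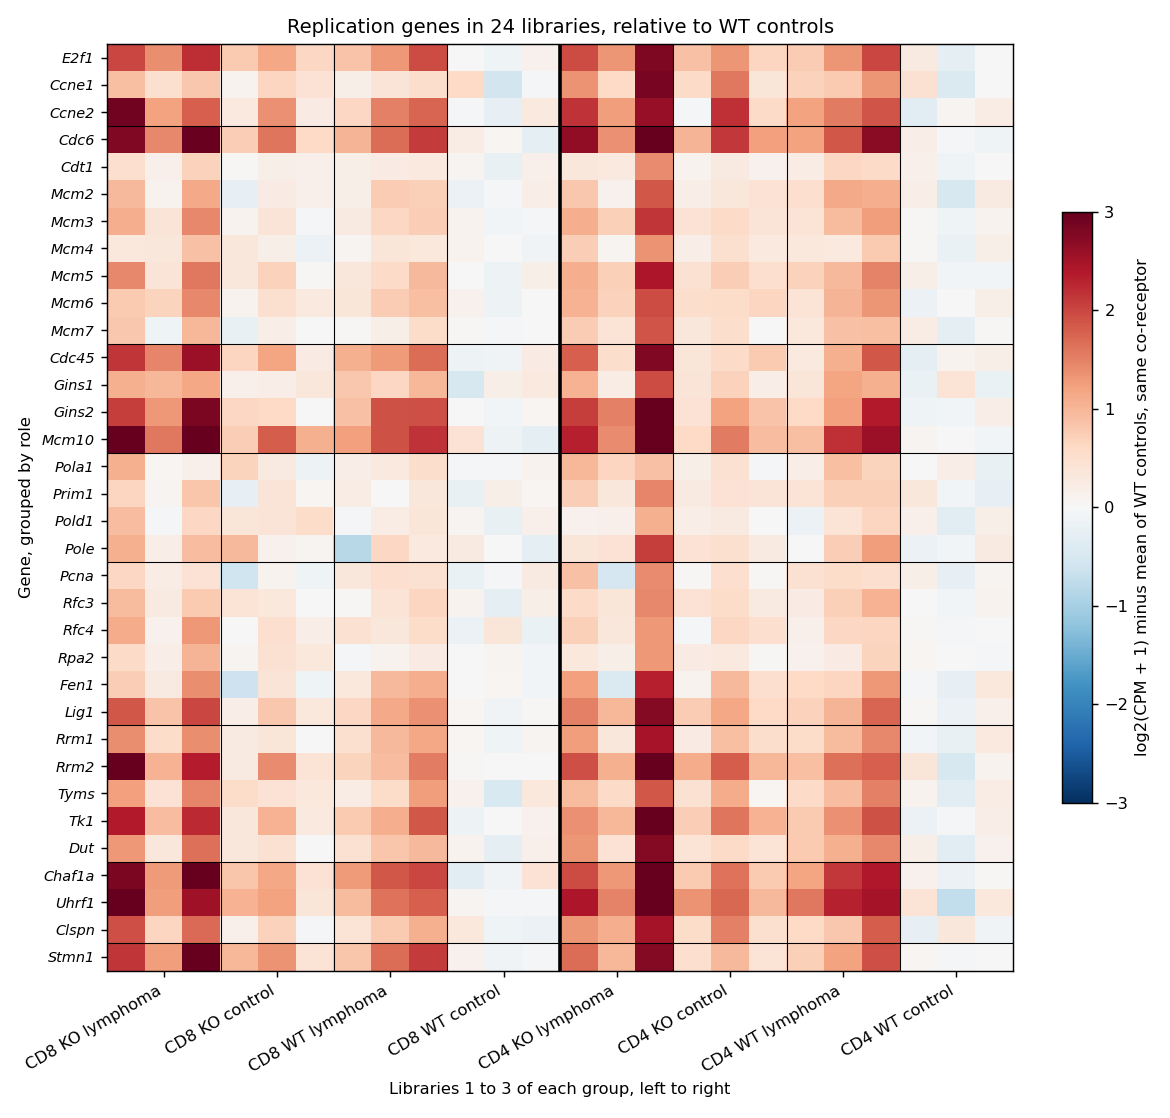
Level of each of the 34 genes (rows, grouped by role) in the 24 libraries (columns, libraries 1 to 3 of each group), as log2(CPM + 1) minus the mean of the 3 WT control libraries of the same co-receptor; red is above and blue below, with colours ending at 3 and -3. Lymphoma columns are red for nearly all rows in KO and WT mice, and library 3 of CD4 KO lymphoma is the highest of the 12 CD4 libraries for 33 of 34 genes.

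Counts by comparison set these levels against their errors, with the edgeR quasi-likelihood test adjusted over all genes tested. In CD8 KO lymphoma against control 4 of 34 members passed, where 2.18% of all genes passed in either direction. Without adjustment 28 were higher at p under 0.05, against 14.8% of all genes, and 11 had every lymphoma library above every control, against 14%. In CD8 WT lymphoma against control edgeR called 2 members (1.42% of all genes), 23 were higher at unadjusted p under 0.05 (11.8%) and 23 did not overlap (14.2%). DESeq2 called 21 members in CD8 KO mice, among 1461 genes called in either direction, and 13 in CD8 WT mice, among 753. Voom called 2, among 386 genes, and 9, among 821. In CD4 KO lymphoma against control edgeR called 0 members and 0% of all genes. There 18 members were higher at unadjusted p under 0.05 (9.21% of all genes) and 6 were without overlap (8.8%). DESeq2 called 4 members there, among 336 genes, and voom 3, among 711. In CD4 WT lymphoma against control edgeR called 0 members (1.69% of all genes), 23 were higher at unadjusted p under 0.05 (10.6%) and 31 did not overlap (16.4%). DESeq2 called 12 members there, among 667 genes, and voom 0, among 269. The median log2 fold change of the members was 0.90 in CD8 KO, 0.78 in CD8 WT, 0.96 in CD4 KO and 1.04 in CD4 WT mice, and that of all genes tested lay between -0.02 and -0.01. The share of members higher without adjustment was thus above the share of all genes in each comparison, while the share without overlap in CD4 KO libraries, 6 of 34, lay nearer to it. In all 4 comparisons 15 members were higher at unadjusted p under 0.05, and 5 were in none: Ccne1, Prim1, Pold1, Pole and Rpa2. The share of all genes higher in all 4 was not computed, nor was the share without overlap in all 4. For the roles and lists below, the counts and shares of all genes given here are the base.

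Single libraries moved these counts. Shares of all genes were not computed for the fits without a library, here or below, so these member counts cannot be set against them. Without CD4 KO lymphoma library 3 the median in CD4 KO mice was 0.29 and the count at unadjusted p 3, and without KO lymphoma library 2 edgeR called 8 members there and 30 passed unadjusted. That unadjusted count was 10 without KO control library 1 and also 10 without KO control library 3. In CD4 WT mice edgeR called 3 members without WT lymphoma library 1, and the unadjusted count was 10 without WT lymphoma library 3. In CD8 WT mice it called 6 without WT lymphoma library 1 and 0 without any of the other 5 libraries, and the unadjusted count was 15 without WT lymphoma library 3. In CD8 KO mice it called 25 without KO lymphoma library 2 and 0 without any of the other 5. The unadjusted CD8 KO count stayed between 19 and 30, and the median between 0.63 and 1.13, whichever library was left out. Pools whose mouse identifiers all begin with S leave 2 lymphoma libraries against 1 control in KO mice and 3 against 2 in WT mice, too few for their calls to serve as a check. The members' median log2 fold change in them was 1.02 in CD8 KO and 0.78 in CD8 WT mice.

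**Figure D2:**
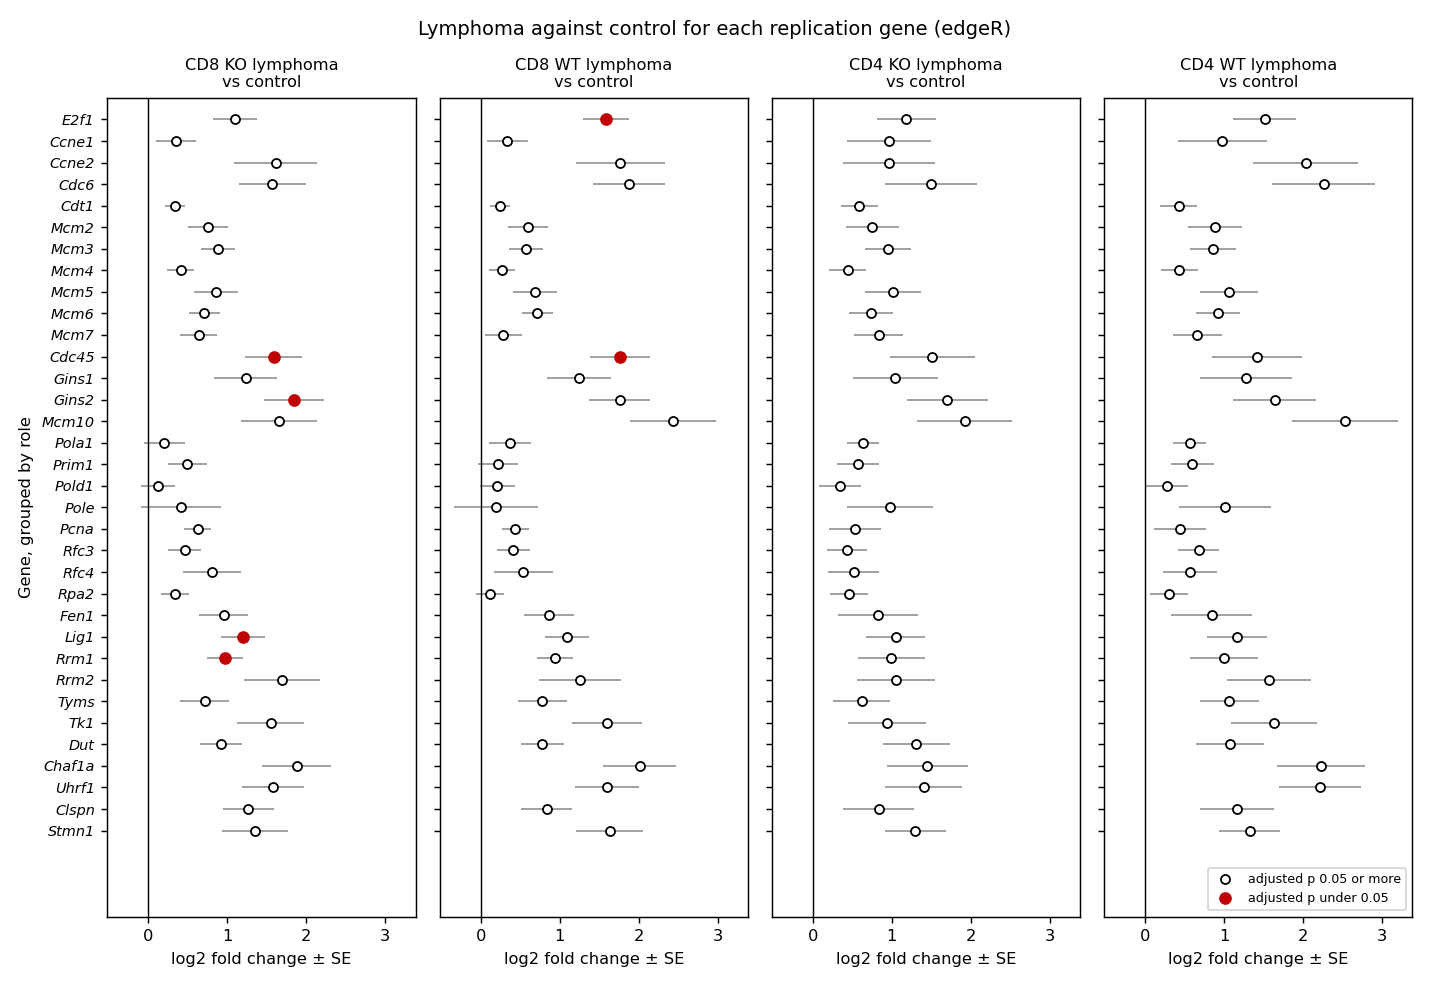
Fitted log2 fold change (x axis, ± SE) of lymphoma over control for each of the 34 genes (rows) in the 4 lymphoma comparisons, 3 libraries a group; filled red points passed an edgeR adjusted p of 0.05. Points lie right of 0 in every panel, and the 6 red points are Cdc45, Gins2, Lig1 and Rrm1 in CD8 KO mice and E2f1 and Cdc45 in CD8 WT mice.

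Summed markers of other cells moved with these levels. The 7 blood progenitor markers (Cd34, Kit, Meis1, Gata2, Myb, Adgrg1 and Hlf) summed to 156, 122 and 432 CPM in CD8 KO lymphoma, against 103, 97.04 and 70.1 CPM in CD8 KO controls. They summed to 98.4, 194 and 248 CPM in CD8 WT lymphoma, against 53.7, 70.2 and 59.4 CPM in CD8 WT controls. These sums did not overlap between lymphoma and control libraries in either genotype. In CD8 KO mice Cd34 and Adgrg1 did not overlap, while Kit, Meis1, Gata2, Myb and Hlf did. Much of the sum was Myb, with 43.6 CPM in CD8 WT control library 1 and 80.3 CPM in CD8 KO lymphoma library 1, where Adgrg1 had 41.4 CPM. In CD4 libraries the progenitor sums were 278.5, 137 and 522 CPM in KO lymphoma, against 89.7, 98.6 and 86.4 CPM in KO controls, and 102, 211 and 277 CPM in WT lymphoma, against 38.2, 43.5 and 48.7 CPM in WT controls. Within each of the 4 lymphoma groups, the libraries had the same rank by progenitor markers as by the replication genes. EdgeR called 0 of the 7 markers in CD8 KO and 0 in CD4 KO mice, where 4 and 7 were higher at unadjusted p under 0.05, DESeq2 called 3 and 6 and voom 0 and 5; it called 1 higher in CD8 WT and 4 in CD4 WT mice. The 10 pan-T markers summed to 1008 to 1900.3 CPM in CD8 KO lymphoma, against 2354 to 2611 CPM in CD8 KO controls, and to 1784 to 2253 CPM in CD8 WT lymphoma, against 2489 to 2849.8 CPM in CD8 WT controls. In CD4 libraries they summed to 1337 to 2446 CPM in KO lymphoma, against 2346 to 2698 CPM in KO controls, and to 1986 to 2494 CPM in WT lymphoma, against 2632 to 3069.96 CPM in WT controls. Lymphoma sums lay below all control sums in CD8 KO, CD8 WT and CD4 WT mice and overlapped with them in CD4 KO mice, and 3 of the 10 markers fell in CD8 KO lymphoma.

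Other lineages also differed between libraries. The 14 erythroid markers reached 66329 CPM in CD8 KO lymphoma library 1 and 35406 CPM in CD4 KO control library 2, and lay between 429.8 and 19353 CPM in the others. EdgeR called 1 of 6 platelet markers higher in CD8 KO, 4 in CD8 WT and 5 in CD4 WT lymphoma, and 1 of 9 neutrophil markers tested and 1 of 10 monocyte markers in CD4 WT lymphoma. The 10 neutrophil markers summed to 342 to 3436 CPM in CD8 KO lymphoma, against 52.1 to 58.6 CPM in CD8 KO controls, where Ly6g had no count, and to 254.3 to 685 CPM in CD4 WT lymphoma, against 28.7 to 145 CPM in CD4 WT controls. The 6 platelet markers summed to 236 to 297 CPM in CD8 WT lymphoma, against 46.1 to 90.7 CPM in CD8 WT controls, and the 10 monocyte and macrophage markers to 1085 to 1830.4 CPM, against 203 to 1093 CPM. In CD8 KO mice monocyte and macrophage markers summed to 1938 to 2616 CPM in lymphoma, against 1241 to 1273 CPM in controls, and platelet markers to 274.3 to 396 CPM, against 122 to 244 CPM. In CD4 WT mice the monocyte and macrophage sums were 1145 to 1675 CPM in lymphoma, against 558 to 988 CPM in controls, and the platelet sums 206 to 244 CPM, against 48.8 to 71.7 CPM. The groups separated in both. B cell markers (10 genes) lay at 39.2 to 836 CPM in CD8 KO lymphoma, against 127 to 179 CPM in CD8 KO controls, and at 30.6 to 112 CPM in CD8 WT lymphoma, against 31.3 to 331 CPM in CD8 WT controls. The 4 plasma cell markers lay at 119 to 265 CPM in CD8 KO lymphoma, against 107 to 112 CPM in CD8 KO controls, and the 5 natural killer markers at 75.97 to 212 CPM, against 178 to 207 CPM. In CD4 KO mice B cell markers summed to 101.1, 59.4 and 49.6 CPM in lymphoma, against 377, 438 and 508 CPM in controls, and natural killer markers to 106, 70.7 and 63.1 CPM, against 219, 170 and 194 CPM. All lymphoma sums lay below all control sums for both lists. EdgeR called 0 of the 10 B cell and 0 of the 5 natural killer markers there, where 10 and 5 were lower at unadjusted p under 0.05, DESeq2 called 6 and 1 and voom 1 and 0. Without the erythroid-rich CD8 KO lymphoma library 1, the members' median in CD8 KO mice was 0.82 and 22 were higher at unadjusted p under 0.05. The part of these cells in the replication genes' levels was not tested.

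**Figure D3:**
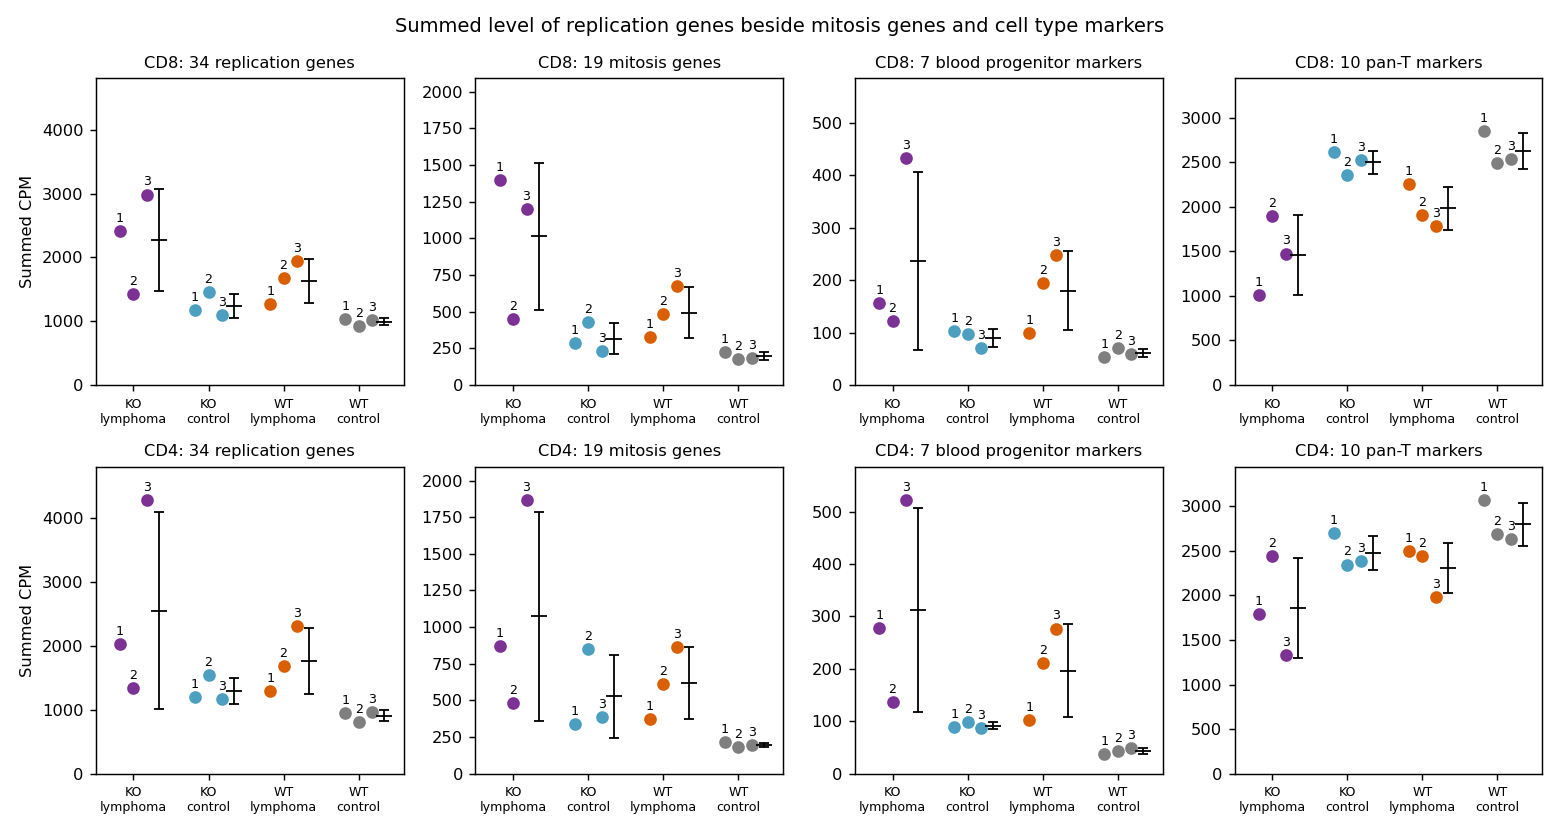
Summed CPM (y axis) of the 34 replication genes, 19 mitosis genes, 7 blood progenitor markers and 10 pan-T markers in each CD8 library (top) and CD4 library (bottom); points are libraries with their replicate number, bars are mean ± SD (n = 3). Mean replication, mitosis and progenitor sums are higher in each lymphoma group than in its controls, and mean pan-T sums are lower.

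Of the 3 S phase entry genes, E2f1 passed the adjusted threshold in CD8 WT mice and in no other lymphoma comparison, and Ccne2 and Ccne1 passed in none. E2f1 (chr2:154559407-154569892, minus strand, GRCm38) encodes a transcription factor that switches S phase genes on. E2f1 had 28.2, 18.1 and 32.6 CPM in CD8 KO lymphoma, against 11.5, 15.2 and 10.2 CPM in KO controls, and 12.04, 16.8 and 27.1 CPM in WT lymphoma, against 6.26, 5.63 and 6.88 CPM in WT controls. In CD4 libraries E2f1 had 25.5, 15.9 and 46.3 CPM in KO lymphoma, against 11.5, 16.05 and 9.70 CPM in KO controls, and 10.5, 16.1 and 26.1 CPM in WT lymphoma, against 7.14, 4.62 and 5.87 CPM in WT controls. E2f1 lymphoma values lay above all control values in CD8 KO, CD8 WT and CD4 WT mice, and the groups overlapped in CD4 KO mice. E2f1 rose in CD8 WT lymphoma (log2 fold change 1.58 ± 0.29, edgeR adjusted p = 0.0219, where ± is the SE of a fit on 3 libraries a group); the log2 fold change was 1.09 ± 0.28 in CD8 KO (edgeR adjusted p = 0.0542), 1.18 ± 0.37 in CD4 KO (edgeR adjusted p = 0.198) and 1.51 ± 0.40 in CD4 WT mice (edgeR adjusted p = 0.0805). Ccne2 (chr4:11191351-11204779, plus strand) encodes cyclin E2, a partner of CDK2 at the start of S phase. Ccne2 had 19.8, 5.44 and 8.74 CPM in CD8 KO lymphoma, against 2.45, 6.27 and 2.32 CPM in KO controls, and 3.30, 6.94 and 8.47 CPM in WT lymphoma, against 1.75, 1.35 and 2.42 CPM in WT controls. In CD4 libraries Ccne2 had 9.98, 4.91 and 14.01 CPM in KO lymphoma, against 1.39, 10.2 and 2.68 CPM in KO controls, and 4.67, 6.21 and 8.09 CPM in WT lymphoma, against 0.989, 1.62 and 1.85 CPM in WT controls. Ccne2 lymphoma values lay above all control values in CD8 WT and CD4 WT mice, and the groups overlapped in CD8 KO and CD4 KO mice. CD4 KO control library 2, with 10.2 CPM, stood above 2 of the 3 CD4 KO lymphoma libraries. Its log2 fold changes were 1.61 ± 0.53 in CD8 KO (edgeR adjusted p = 0.0913) and 1.77 ± 0.56 in CD8 WT mice (edgeR adjusted p = 0.132), and its 3′ end overlaps Ints8 on the opposite strand, so its reads are uncertain. Ccne1, the other cyclin E, had the smallest log2 fold changes of the 3 in CD8 libraries, 0.34 ± 0.25 in KO and 0.34 ± 0.26 in WT mice, and its unadjusted p was under 0.05 in 0 of the 4 lymphoma comparisons.

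Among the 8 origin licensing genes Cdc6 had the largest and Mcm4 and Cdt1 the smallest log2 fold changes in each of the 4 lymphoma comparisons. EdgeR called 0 in each comparison. At unadjusted p under 0.05, 8, 5, 7 and 5 were higher in CD8 KO, CD8 WT, CD4 KO and CD4 WT mice. The shares of all genes there were 14.8%, 11.8%, 9.21% and 10.6%. DESeq2 called 5, 2, 0 and 2 and voom 0, 2, 0 and 0. Cdc6 (chr11:98907801-98923940, plus strand) recruits the helicase to the origin. Cdc6 had 33.2, 12.6 and 37.9 CPM in CD8 KO lymphoma, against 7.34, 14.2 and 6.499 CPM in KO controls, and 9.09, 15.03 and 20.4 CPM in WT lymphoma, against 4.80, 4.17 and 3.14 CPM in WT controls. In CD4 libraries Cdc6 had 26.9, 10.5 and 68.4 CPM in KO lymphoma, against 7.96, 18.4 and 9.36 CPM in KO controls, and 9.22, 15.2 and 28.1 CPM in WT lymphoma, against 4.06, 3.24 and 3.09 CPM in WT controls. Cdc6 lymphoma values lay above all control values in CD8 WT and CD4 WT mice, and the groups overlapped in CD8 KO and CD4 KO mice. Its log2 fold changes were 1.57 ± 0.43 in CD8 KO (edgeR adjusted p = 0.0636), 1.88 ± 0.46 in CD8 WT (edgeR adjusted p = 0.0632) and 2.26 ± 0.65 in CD4 WT mice (edgeR adjusted p = 0.117). Mcm3 (chr1:20802968-20820312, minus strand) and Mcm6 (chr1:128331590-128359664, minus strand) are subunits of the helicase ring, and they are the licensing genes whose groups did not overlap in any lymphoma comparison. How many of all genes meet that rule in all 4 was not computed, so it does not set these 2 apart. Mcm3 had 186.2, 114.4 and 238.8 CPM in CD8 KO lymphoma, against 93.7, 114.3 and 83.8 CPM in KO controls, and 104.8, 134.1 and 146.4 CPM in WT lymphoma, against 94.3, 81.9 and 85.1 CPM in WT controls. In CD4 libraries Mcm3 had 143.5, 111.0 and 303.1 CPM in KO lymphoma, against 91.7, 100.5 and 87.6 CPM in KO controls, and 89.3, 130.1 and 163.2 CPM in WT lymphoma, against 69.0, 61.2 and 72.3 CPM in WT controls. Within each co-receptor class, every lymphoma value of Mcm3 was above every control value of its own genotype, with 114.4 and 114.3 CPM in CD8 KO mice the closest pair. The Mcm3 log2 fold change was 0.88 ± 0.22 in CD8 KO (edgeR adjusted p = 0.0537) and 0.57 ± 0.22 in CD8 WT mice (edgeR adjusted p = 0.204). Mcm6 had 100.1, 91.8 and 157 CPM in CD8 KO lymphoma, against 62.1, 80.7 and 70.1 CPM in KO controls, and 74.1, 97.5 and 109 CPM in WT lymphoma, against 62.3, 51.8 and 58.2 CPM in WT controls. In CD4 libraries Mcm6 had 98.6, 77.9 and 189 CPM in KO lymphoma, against 68.5, 69.8 and 74.6 CPM in KO controls, and 63.8, 97.9 and 121 CPM in WT lymphoma, against 41.7, 47.5 and 54.2 CPM in WT controls. Mcm6 also separated lymphoma from control libraries of its genotype within each co-receptor class, with KO lymphoma library 3 highest in both classes. Its log2 fold changes were 0.71 ± 0.19 in CD8 KO (edgeR adjusted p = 0.0618), 0.72 ± 0.19 in CD8 WT (edgeR adjusted p = 0.0814), 0.73 ± 0.27 in CD4 KO (edgeR adjusted p = 0.248) and 0.92 ± 0.28 in CD4 WT mice (edgeR adjusted p = 0.127). Of the others, Mcm5 had a log2 fold change of 0.86 ± 0.28 in CD8 KO and 1.06 ± 0.36 in CD4 WT mice, Mcm2 of 0.75 ± 0.25 and 0.88 ± 0.34 and Mcm7 of 0.63 ± 0.23 and 0.66 ± 0.31. Mcm4, of 0.41 ± 0.17 and 0.43 ± 0.23, and Cdt1, the loading factor, of 0.34 ± 0.13 and 0.43 ± 0.24, had the smallest changes of the 8. The 3′ ends of Mcm7, Rrm2, Stmn1 and Tyms match processed pseudogenes at 95% identity or more, and several transcripts match a stretch of the Mcm5 end, so reads of these genes are uncertain.

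Origin firing genes gave 3 of the 6 calls. Cdc45 rose in WT and in KO CD8 lymphoma libraries and Gins2 in KO. All 4 genes of the role were higher at unadjusted p under 0.05 in CD4 WT, CD8 WT and CD8 KO mice. The shares of all genes there were 10.6%, 11.8% and 14.8%. Cdc45 (chr16:18780447-18811987, minus strand) joins the loaded helicase to start unwinding. Cdc45 had 11.8, 6.96 and 16.1 CPM in CD8 KO lymphoma, against 3.52, 5.57 and 2.44 CPM in KO controls, and 5.07, 6.04 and 8.24 CPM in WT lymphoma, against 1.60, 1.69 and 2.42 CPM in WT controls. In CD4 libraries Cdc45 had 11.5, 4.21 and 23.99 CPM in KO lymphoma, against 3.68, 4.38 and 5.24 CPM in KO controls, and 3.41, 6.57 and 12.2 CPM in WT lymphoma, against 1.98, 2.89 and 3.09 CPM in WT controls. Cdc45 lymphoma values lay above all control values in CD8 KO, CD8 WT and CD4 WT mice, and the groups overlapped in CD4 KO mice. The log2 fold change was 1.59 ± 0.36 in CD8 KO (edgeR adjusted p = 0.0495) and 1.76 ± 0.38 in CD8 WT mice (edgeR adjusted p = 0.0457), from as few as 11 counts in a library. Ufd1, whose exons overlap Cdc45 on the opposite strand, had a log2 fold change of 0.03 ± 0.10 in CD8 KO (edgeR adjusted p = 0.861) and -0.24 ± 0.10 in CD8 WT mice (edgeR adjusted p = 0.244). Gins2 (chr8:120578633-120589304, minus strand) is a subunit of the GINS complex. Gins2 had 41.00, 23.7 and 70.6 CPM in CD8 KO lymphoma, against 14.4, 14.2 and 9.05 CPM in KO controls, and 17.3, 36.7 and 37.3 CPM in WT lymphoma, against 9.16, 8.45 and 9.54 CPM in WT controls. In CD4 libraries Gins2 had 40.2, 27.1 and 104 CPM in KO lymphoma, against 12.2, 21.6 and 16.8 CPM in KO controls, and 13.9, 22.04 and 50.1 CPM in WT lymphoma, against 8.02, 8.32 and 10.2 CPM in WT controls. All Gins2 lymphoma values were above all control values in each of the 4 comparisons. It rose in CD8 KO lymphoma (log2 fold change 1.84 ± 0.38, edgeR adjusted p = 0.0464), and the log2 fold change was 1.76 ± 0.39 in CD8 WT (edgeR adjusted p = 0.053), 1.70 ± 0.51 in CD4 KO (edgeR adjusted p = 0.187) and 1.64 ± 0.53 in CD4 WT mice (edgeR adjusted p = 0.165). The 3′ end of Gins2 lies across Gse1 on the opposite strand, so its reads are uncertain; Gse1 itself had a log2 fold change of 0.13 ± 0.18 in CD8 KO mice (edgeR adjusted p = 0.68). Mcm10, which helps Cdc45 onto the helicase, had the largest fitted change of any member in CD4 WT (log2 fold change 2.54 ± 0.67, edgeR adjusted p = 0.0882) and CD8 WT mice (log2 fold change 2.44 ± 0.55, edgeR adjusted p = 0.0521) without passing. Gins1, the least counted member with as few as 3 counts in a library, had a log2 fold change of 1.23 ± 0.40 in CD8 KO and 1.24 ± 0.41 in CD8 WT mice.

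**Figure D4:**
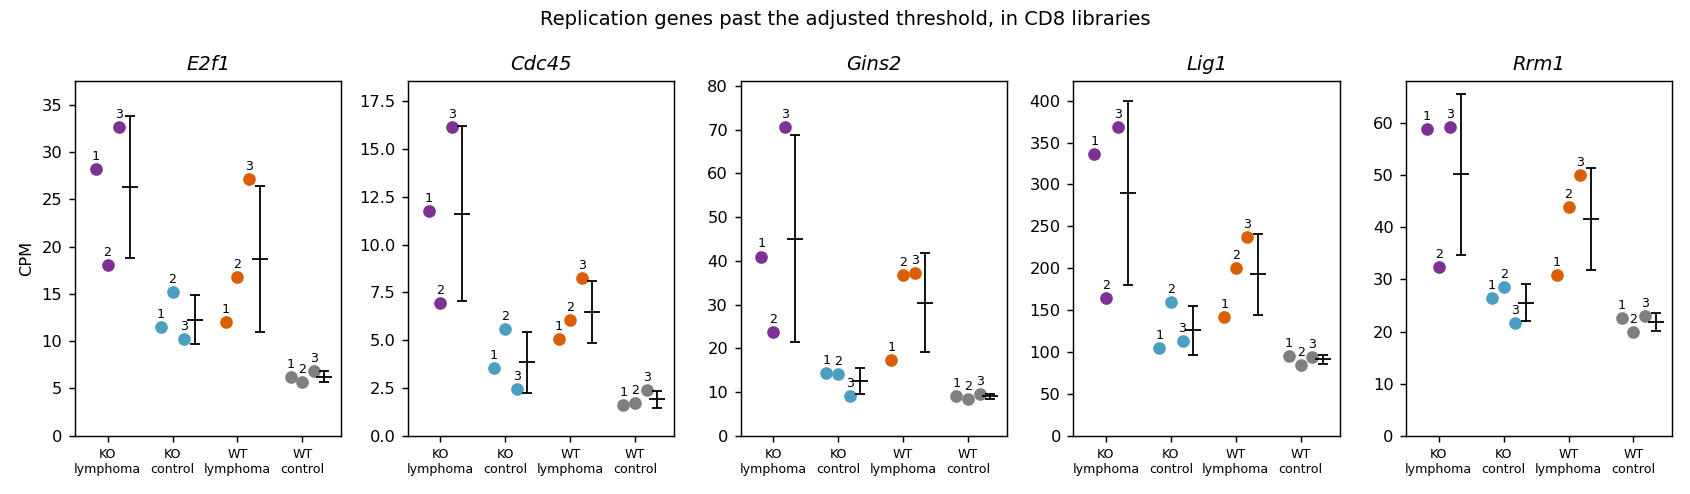
CPM (y axis, starting at 0) of the 5 replication genes past the adjusted threshold in the 12 CD8 libraries; points are libraries with their replicate number, bars are mean ± SD (n = 3). WT lymphoma points lie above all WT control points for every gene, and KO lymphoma library 2 is the lowest of its group in each panel.

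Polymerase and primase genes had the smallest median log2 fold change of the 8 roles in CD8 KO (0.31), CD8 WT (0.21) and CD4 WT mice (0.58). EdgeR called 0 of 4 in each lymphoma comparison. At unadjusted p under 0.05, 0 were higher in CD8 KO, 0 in CD8 WT, 1 in CD4 KO and 1 in CD4 WT mice. The shares of all genes there were 14.8%, 11.8%, 9.21% and 10.6%. DESeq2 called 0 in all 4 and voom called Pola1 in CD4 KO mice. Pola1 (chrX:93304767-93632155, minus strand) is the catalytic subunit of polymerase alpha, which starts each strand. Pola1 had 51.00, 24.9 and 26.7 CPM in CD8 KO lymphoma, against 38.8, 29.3 and 21.5 CPM in KO controls, and 27.6, 29.5 and 35.2 CPM in WT lymphoma, against 22.98, 22.98 and 26.1 CPM in WT controls. In CD4 libraries Pola1 had 43.1, 33.4 and 39.3 CPM in KO lymphoma, against 23.7, 29.3 and 20.4 CPM in KO controls, and 24.4, 39.98 and 34.2 CPM in WT lymphoma, against 21.3, 24.2 and 17.9 CPM in WT controls. Pola1 lymphoma values lay above all control values in CD8 WT, CD4 KO and CD4 WT mice, and the groups overlapped in CD8 KO mice. The log2 fold change was 0.20 ± 0.26 in CD8 KO mice (edgeR adjusted p = 0.658), 0.63 ± 0.20 in CD4 KO (edgeR adjusted p = 0.202) and 0.56 ± 0.21 in CD4 WT mice (edgeR adjusted p = 0.214), and whether it differed between CD8 and CD4 cells was not tested. Prim1 (chr10:128015168-128030037, plus strand) is the primase that lays the RNA primer. Prim1 had 12.8, 8.27 and 14.5 CPM in CD8 KO lymphoma, against 6.42, 10.6 and 8.12 CPM in KO controls, and 9.21, 7.83 and 10.2 CPM in WT lymphoma, against 6.55, 8.90 and 8.09 CPM in WT controls. In CD4 libraries Prim1 had 11.6, 8.61 and 20.1 CPM in KO lymphoma, against 8.16, 9.17 and 8.92 CPM in KO controls, and 9.10, 11.4 and 11.5 CPM in WT lymphoma, against 8.57, 6.13 and 5.41 CPM in WT controls. Prim1 lymphoma values lay above all control values in CD4 WT mice, and the groups overlapped in CD8 KO, CD8 WT and CD4 KO mice. Its log2 fold changes ran from 0.22 ± 0.25 in CD8 WT (edgeR adjusted p = 0.702) to 0.60 ± 0.28 in CD4 WT mice (edgeR adjusted p = 0.33). Pold1, the catalytic subunit of polymerase delta, had a log2 fold change of 0.12 ± 0.22 in CD8 KO and 0.34 ± 0.27 in CD4 KO mice, and Pole, that of polymerase epsilon, of 0.19 ± 0.54 in CD8 WT and 1.01 ± 0.58 in CD4 WT mice.

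Genes of the clamp, its loader and strand joining spanned small to large changes, with Lig1 past the threshold in CD8 KO mice. Lig1 (chr7:13277283-13311433, plus strand) encodes the ligase that joins Okazaki fragments. Lig1 had 336, 164 and 368 CPM in CD8 KO lymphoma, against 105, 159 and 113 CPM in KO controls, and 141, 200.5 and 237 CPM in WT lymphoma, against 94.99, 84.5 and 93.8 CPM in WT controls. In CD4 libraries Lig1 had 256, 178 and 603 CPM in KO lymphoma, against 151, 199 and 133 CPM in KO controls, and 144, 179.7 and 297 CPM in WT lymphoma, against 90.4, 78.04 and 97.8 CPM in WT controls. Lig1 lymphoma values lay above all control values in CD8 KO, CD8 WT and CD4 WT mice, and the groups overlapped in CD4 KO mice. Lig1 rose in CD8 KO lymphoma (log2 fold change 1.20 ± 0.27, edgeR adjusted p = 0.0498), and the log2 fold change was 1.09 ± 0.28 in CD8 WT (edgeR adjusted p = 0.0707), 1.05 ± 0.38 in CD4 KO (edgeR adjusted p = 0.235) and 1.17 ± 0.38 in CD4 WT mice (edgeR adjusted p = 0.164). Lig1 exons overlap Zswim9 on the opposite strand. Pcna (chr2:132249162-132253314, minus strand) is the sliding clamp itself. Pcna had 88.96, 67.2 and 78.7 CPM in CD8 KO lymphoma, against 37.8, 61.98 and 52.1 CPM in KO controls, and 72.9, 81.4 and 79.4 CPM in WT lymphoma, against 49.6, 55.3 and 69.3 CPM in WT controls. In CD4 libraries Pcna had 107, 40.3 and 155 CPM in KO lymphoma, against 59.3, 82.5 and 59.1 CPM in KO controls, and 80.4, 84.7 and 82.9 CPM in WT lymphoma, against 65.8, 48.3 and 61.05 CPM in WT controls. Pcna lymphoma values lay above all control values in CD8 KO, CD8 WT and CD4 WT mice, and the groups overlapped in CD4 KO mice. In CD4 KO mice lymphoma library 2 was below all 3 controls and lymphoma library 3 was the highest of all 24 libraries. The log2 fold change was 0.62 ± 0.18 in CD8 KO (edgeR adjusted p = 0.0648) and 0.44 ± 0.17 in CD8 WT mice (edgeR adjusted p = 0.217). Fen1, which trims flaps before ligation, had a log2 fold change of 0.95 ± 0.31 in CD8 KO and 0.87 ± 0.31 in CD8 WT mice, Rfc3 of 0.46 ± 0.21 and 0.41 ± 0.21, Rfc4 of 0.81 ± 0.37 and 0.54 ± 0.38, and Rpa2, which coats single strands, of 0.34 ± 0.18 and 0.11 ± 0.18. Fen1 lies across the antisense gene Gm10143 and Rfc4 meets Eif4a2, which had more counts, on the opposite strand, so both are uncertain.

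All 5 nucleotide supply genes were higher at unadjusted p under 0.05 in CD4 WT, CD8 WT and CD8 KO mice. The shares of all genes there were 10.6%, 11.8% and 14.8%. Rrm1 passed the adjusted threshold in CD8 KO mice. Rrm1 (chr7:102441695-102469771, plus strand) is the large subunit of ribonucleotide reductase. Rrm1 had 58.9, 32.3 and 59.2 CPM in CD8 KO lymphoma, against 26.4, 28.6 and 21.6 CPM in KO controls, and 30.8, 43.9 and 50.01 CPM in WT lymphoma, against 22.7, 19.8 and 23.1 CPM in WT controls. In CD4 libraries Rrm1 had 51.5, 26.9 and 122 CPM in KO lymphoma, against 25.1, 40.5 and 30.9 CPM in KO controls, and 31.5, 41.97 and 59.5 CPM in WT lymphoma, against 19.99, 18.04 and 26.1 CPM in WT controls. Rrm1 lymphoma values lay above all control values in CD8 KO, CD8 WT and CD4 WT mice, and the groups overlapped in CD4 KO mice. Rrm1 rose in CD8 KO lymphoma (log2 fold change 0.97 ± 0.22, edgeR adjusted p = 0.0495), with 0.94 ± 0.22 in CD8 WT mice (edgeR adjusted p = 0.0579). Tk1 (chr11:117815526-117826092, minus strand) salvages thymidine. Tk1 had 18.2, 5.98 and 16.4 CPM in CD8 KO lymphoma, against 3.67, 6.62 and 3.48 CPM in KO controls, and 5.31, 6.81 and 12.4 CPM in WT lymphoma, against 2.33, 2.70 and 3.02 CPM in WT controls. In CD4 libraries Tk1 had 9.61, 7.11 and 32.95 CPM in KO lymphoma, against 5.87, 11.5 and 7.47 CPM in KO controls, and 6.06, 9.61 and 14.5 CPM in WT lymphoma, against 2.64, 3.01 and 3.71 CPM in WT controls. Tk1 lymphoma values lay above all control values in CD8 WT and CD4 WT mice, and the groups overlapped in CD8 KO and CD4 KO mice. Its log2 fold changes were 1.55 ± 0.42 in CD8 KO (edgeR adjusted p = 0.0624) and 1.60 ± 0.44 in CD8 WT mice (edgeR adjusted p = 0.087). Rrm2, the small subunit, had a log2 fold change of 1.69 ± 0.49 in CD8 KO and 1.26 ± 0.51 in CD8 WT mice, Tyms, the thymidylate synthase, of 0.71 ± 0.31 and 0.78 ± 0.31, and Dut, which removes dUTP, of 0.92 ± 0.27 and 0.78 ± 0.27.

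The chromatin and checkpoint genes had the highest median log2 fold change of the 8 roles in CD4 WT libraries, 2.21, and none passed in edgeR. At unadjusted p under 0.05, 3, 3, 2 and 3 of 3 were higher in CD8 KO, CD8 WT, CD4 KO and CD4 WT mice. The shares of all genes there were 14.8%, 11.8%, 9.21% and 10.6%. DESeq2 called 3, 2, 0 and 2 and voom 0 in each. Chaf1a (chr17:56040439-56072289, plus strand) is a subunit of the assembly factor that lays histones on new DNA. Chaf1a had 26.4, 8.38 and 30.5 CPM in CD8 KO lymphoma, against 5.81, 7.66 and 4.18 CPM in KO controls, and 8.26, 12.97 and 14.5 CPM in WT lymphoma, against 2.04, 2.59 and 4.23 CPM in WT controls. In CD4 libraries Chaf1a had 14.4, 8.91 and 43.1 CPM in KO lymphoma, against 5.87, 11.5 and 5.91 CPM in KO controls, and 8.09, 16.4 and 20.01 CPM in WT lymphoma, against 3.41, 2.54 and 3.09 CPM in WT controls. Chaf1a lymphoma values lay above all control values in CD8 KO, CD8 WT and CD4 WT mice, and the groups overlapped in CD4 KO mice. The log2 fold change was 1.88 ± 0.44 in CD8 KO mice (edgeR adjusted p = 0.0502), just short of the threshold, and 2.01 ± 0.46 in CD8 WT mice (edgeR adjusted p = 0.0554). The Chaf1a end lies across Ubxn6 on the opposite strand, which had a log2 fold change of -0.21 ± 0.13 in CD8 KO mice (edgeR adjusted p = 0.323). Uhrf1 (chr17:56303321-56323486, plus strand) brings the maintenance DNA methyltransferase to new DNA. Uhrf1 had 83.95, 24.5 and 61.1 CPM in CD8 KO lymphoma, against 20.9, 23.3 and 12.6 CPM in KO controls, and 19.4, 31.6 and 35.9 CPM in WT lymphoma, against 10.2, 9.24 and 9.42 CPM in WT controls. In CD4 libraries Uhrf1 had 37.6, 19.3 and 91.03 CPM in KO lymphoma, against 17.5, 22.9 and 13.3 CPM in KO controls, and 20.6, 34.7 and 40.02 CPM in WT lymphoma, against 8.57, 3.35 and 8.04 CPM in WT controls. Uhrf1 lymphoma values lay above all control values in CD8 KO, CD8 WT and CD4 WT mice, and the groups overlapped in CD4 KO mice. Uhrf1 had the smallest adjusted p of any member in CD4 WT mice (log2 fold change 2.21 ± 0.52, edgeR adjusted p = 0.0616), and the log2 fold change was 1.57 ± 0.39 in CD8 KO (edgeR adjusted p = 0.0562) and 1.60 ± 0.41 in CD8 WT mice (edgeR adjusted p = 0.0755). Clspn, the claspin of the fork checkpoint, had a log2 fold change of 1.27 ± 0.32 in CD8 KO and 0.83 ± 0.32 in CD8 WT mice.

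Stmn1 (chr4:134468320-134473843, plus strand), which encodes the microtubule regulator stathmin, was the member with the most counts. Stmn1 had 316, 171 and 579 CPM in CD8 KO lymphoma, against 143, 180.4 and 94.1 CPM in KO controls, and 127, 227 and 305 CPM in WT lymphoma, against 77.7, 66.02 and 69.3 CPM in WT controls. In CD4 libraries Stmn1 had 341, 214 and 722 CPM in KO lymphoma, against 151, 209 and 142 CPM in KO controls, and 176, 247 and 411 CPM in WT lymphoma, against 112, 102 and 106 CPM in WT controls. Stmn1 lymphoma values lay above all control values in CD8 WT, CD4 KO and CD4 WT mice, and the groups overlapped in CD8 KO mice. Its log2 fold changes were 1.35 ± 0.42 in CD8 KO (edgeR adjusted p = 0.0866), 1.63 ± 0.43 in CD8 WT (edgeR adjusted p = 0.0835), 1.30 ± 0.38 in CD4 KO (edgeR adjusted p = 0.182) and 1.32 ± 0.39 in CD4 WT mice (edgeR adjusted p = 0.12). It made 6.80% to 19.4% of the summed level in a library.

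The second question of the design is whether loss of Atm moves these genes. In controls KO levels were mostly above WT levels, but edgeR called 0 members in CD4 (2.01% of all genes) and 0 in CD8 libraries (0.522%). At unadjusted p under 0.05, 7 were higher in CD4 controls (12.5% of all genes) and 7 in CD8 controls (8.99%). DESeq2 called Cdc6 in CD4 controls, among 768 genes, and Mcm10 in CD8 controls, among 363. Voom called 0 members in each, among 1480 genes in CD4 and 365 in CD8 controls. All KO controls lay above all WT controls for 18 members in CD4 (21.4% of all genes) and 11 in CD8 libraries (12.1%), which is a share above that of all genes. The median log2 fold change was 0.53 in CD4 and 0.39 in CD8 controls. Summed over the members, KO controls lay at 1169 to 1539 CPM in CD4, against 811 to 961 CPM in WT controls. In CD8 they lay at 1091 to 1451 CPM, against 929.7 to 1032 CPM. Mitosis genes summed to 340.4 to 854 CPM in CD4 KO controls, against 181 to 213 CPM in CD4 WT controls. In CD8 controls mitosis sums were 230.01 to 433 CPM in KO, against 178 to 228.1 CPM in WT mice. The members with the smallest p in CD4 were Uhrf1 (log2 fold change 1.37 ± 0.51, edgeR adjusted p = 0.193), Rrm2 (log2 fold change 1.40 ± 0.53, edgeR adjusted p = 0.194) and Cdc6 (log2 fold change 1.70 ± 0.64, edgeR adjusted p = 0.198), and in CD8 libraries E2f1 (log2 fold change 1.01 ± 0.29, edgeR adjusted p = 0.164) and Mcm10 (log2 fold change 1.83 ± 0.55, edgeR adjusted p = 0.182). The unadjusted CD4 count was 0 without WT control library 2, 0 without the erythroid-rich KO control library 2, 3 without WT control library 1 and 2 without WT control library 3. In CD8 controls it was 4 without WT control library 1, WT control library 3 or KO control library 1, 3 without WT control library 2 and 2 without KO control library 2. The 14 erythroid markers lay at 5161 to 35406 CPM in CD4 KO controls, against 459.8 to 9459 CPM in CD4 WT controls. Other marker sums separated the genotypes in CD4 controls. Monocyte and macrophage markers lay at 1484 to 1991 CPM in CD4 KO controls, against 558 to 988 CPM in CD4 WT controls, platelet markers at 120.3 to 290 CPM, against 48.8 to 71.7 CPM, and blood progenitor markers at 86.4 to 98.6 CPM, against 38.2 to 48.7 CPM. B cell markers lay at 377 to 508 CPM in CD4 KO controls, against 27.6 to 370 CPM in CD4 WT controls, natural killer markers at 170 to 219 CPM, against 35.8 to 150 CPM, neutrophil markers at 176 to 196 CPM, against 28.7 to 145 CPM, and plasma cell markers at 195 to 242 CPM, against 73.7 to 134 CPM. EdgeR called 7 of 10 monocyte and macrophage and 4 of 6 platelet markers higher in CD4 KO controls. In CD8 controls monocyte and macrophage markers lay at 1241 to 1273 CPM in KO, against 203 to 1093 CPM in WT mice, platelet markers at 122 to 244 CPM, against 46.1 to 90.7 CPM, and natural killer markers at 178 to 207 CPM, against 22.4 to 149 CPM. The other marker lists overlapped there. The part of these cells in the genotype values was not tested.

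Between lymphoma groups the Atm genotypes overlapped for every member. Monocyte and macrophage sums did not overlap, at 1938 to 2616 CPM in CD8 KO lymphoma, against 1085 to 1830.4 CPM in CD8 WT lymphoma, and at 1991 to 2818 CPM in CD4 KO lymphoma, against 1145 to 1675 CPM in CD4 WT lymphoma. Natural killer sums did not overlap either, at 75.97 to 212 CPM in CD8 KO lymphoma, against 48.03 to 70.3 CPM in CD8 WT lymphoma, and at 63.1 to 106 CPM in CD4 KO lymphoma, against 30.2 to 44.9 CPM in CD4 WT lymphoma. Neutrophil sums were also apart in CD8 libraries, at 342 to 3436 CPM in KO lymphoma, against 155 to 207 CPM in WT lymphoma. Platelet sums were apart in CD4 libraries, at 287 to 457 CPM in KO lymphoma, against 206 to 244 CPM in WT lymphoma. The part of these cells was not tested. EdgeR called 0 members in KO against WT lymphoma in CD4 (0% of all genes) and 0 in CD8 libraries (0.245%). DESeq2 called 0 members in each, among 81 genes in CD4 and 492 in CD8, and voom 0, among 81 and 22. At unadjusted p under 0.05, 0 were higher in CD4 (5.89% of all genes) and 9 in CD8 libraries (8.51%), led by Rpa2 (log2 fold change 0.55 ± 0.18, edgeR adjusted p = 0.165) and Rrm2 (log2 fold change 1.40 ± 0.48, edgeR adjusted p = 0.183). No member had all KO lymphoma above all WT lymphoma libraries, against 6.81% of all genes in CD4 and 8.03% in CD8 libraries. Median log2 fold changes were 0.49 in CD4 and 0.51 in CD8 lymphoma libraries. Without KO lymphoma library 2, edgeR called 10 members in CD8 libraries, and the unadjusted count was 27 in CD8 and 18 in CD4. The CD4 count was 8 without WT lymphoma library 3. The shares of all genes in these fits were not computed. The CD4 median was -0.12 without KO lymphoma library 3. In CD8 the unadjusted count was 1 without WT lymphoma library 1, 4 without WT lymphoma library 2, 1 without KO lymphoma library 1 and 2 without KO lymphoma library 3. The difference of the lymphoma effect between KO and WT mice was also tested: edgeR called 0 members (0% of all genes) in CD4 and 0 (0%) in CD8 libraries. None had an unadjusted p under 0.05, against 3.64% of all genes in CD4 and 3.49% in CD8. DESeq2 and voom called 0 members, and 1 and 0 of all genes in each co-receptor. The median difference, KO minus WT effect, was -0.04 in CD4 and 0.06 in CD8 libraries, and it was -0.69 in CD4 without KO lymphoma library 3.

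CD8 and CD4 libraries of the same mice carried near-equal levels of most members. The median log2 fold change of CD8 over CD4 was -0.01 in KO lymphoma, 0.00 in KO controls, -0.07 in WT lymphoma and 0.16 in WT controls, and 16, 17, 10 and 28 of the 34 were positive. EdgeR without the pairing called 0 members in KO lymphoma (2.35% of all genes), KO control (4.95%), WT lymphoma (2.54%) and WT control (3.48%). At unadjusted p under 0.05, 0 were higher in CD8 than CD4 libraries in KO lymphoma (5.83% of all genes), 2 in KO controls (8.71%), 0 in WT lymphoma (3.88%) and 2 in WT controls (5.49%). Voom called Ccne1, Cdt1, Pold1 and Rpa2 in KO controls, among 1966 genes called, and Cdt1 in WT controls, among 678. DESeq2 called Ccne1 in WT controls, among 581 genes, and none in KO controls, among 951. Neither tool called a member in the lymphoma groups. There DESeq2 called 461 genes in KO and 416 in WT mice, and voom 305 and 656. The mouse pool was also used as a block, since CD8 and CD4 libraries of 1 pool come from the same mice. EdgeR then called 1 member in KO lymphoma, 2 in KO controls, 0 in WT lymphoma and 2 in WT controls. Shares of all genes were not computed with this block, so these counts cannot be set against them. With the block Ccne1 was higher in CD8 than CD4 WT controls (log2 fold change 1.44 ± 0.33, edgeR adjusted p = 0.0232) and Stmn1 lower (-0.56 ± 0.12, edgeR adjusted p = 0.0102). Cdt1 (0.50 ± 0.14, edgeR adjusted p = 0.0363) and Rpa2 (0.53 ± 0.12, edgeR adjusted p = 0.0144) were higher in CD8 KO controls, and Rpa2 in CD8 KO lymphoma (0.47 ± 0.12, edgeR adjusted p = 0.0427). The Ccne1 levels behind this were 19.8, 8.45 and 12.4 CPM in CD8 WT controls, against 7.03, 3.35 and 4.79 CPM in CD4 WT controls of the same mice. In each of the 3 pairs the CD8 value was the higher. Without CD4 KO lymphoma library 3 the unpaired test called Cdt1 and Rpa2 higher in CD8 KO lymphoma, and the median was 0.58.

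Of 57 other replication genes (the origin recognition complex, further polymerase, clamp loader and GINS subunits, histone and nucleotide factors), edgeR called 0 in each lymphoma comparison. At unadjusted p under 0.05, 28 were higher in CD8 KO, 14 in CD8 WT, 18 in CD4 KO and 11 in CD4 WT mice; DESeq2 called 16, 3, 1 and 4 higher and voom 0, 3, 3 and 0. Their median log2 fold changes were 0.44, 0.24, 0.39 and 0.32, below those of the 34 members in each comparison. Both lists were chosen with earlier results of these data known. Cdk2, the kinase that cyclin E activates, was the only gene of this list called in any comparison, lower in CD8 than CD4 KO controls (log2 fold change -1.14 ± 0.23, edgeR adjusted p = 0.00381).

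Among 21 E2F, RB family and CDK inhibitor genes, Cdkn1a passed the adjusted threshold in CD4 WT and CD8 WT lymphoma and E2f8 in CD8 WT lymphoma. Cdkn1a, the p21 inhibitor of CDKs, had 2.53, 5.04 and 7.10 CPM in CD4 WT lymphoma, against 0.659, 0.462 and 0.927 CPM in CD4 WT controls, and rose (log2 fold change 2.78 ± 0.44, edgeR adjusted p = 0.00954). It had 2.24, 4.88 and 8.35 CPM in CD8 WT lymphoma, against 0.582, 1.35 and 0.966 CPM in CD8 WT controls, and rose there too (log2 fold change 2.37 ± 0.48, edgeR adjusted p = 0.0353). No lymphoma value overlapped a control value in these groups. In KO mice Cdkn1a levels also lay higher in lymphoma than in control libraries, without overlap. They were 5.88 to 8.04 CPM in CD8 KO lymphoma, against 1.38 to 2.55 CPM in CD8 KO controls. In CD4 libraries they were 7.21 to 10.5 CPM in KO lymphoma, against 2.45 to 4.48 CPM in KO controls. Cdkn1a was also higher in CD4 KO than CD4 WT controls (log2 fold change 2.26 ± 0.44, edgeR adjusted p = 0.0312), with 4.48, 3.33 and 2.45 CPM in the KO controls. E2f8, an E2F family repressor, had 11.2, 19.3 and 25.1 CPM in CD8 WT lymphoma, against 3.05, 2.25 and 4.35 CPM in CD8 WT controls, and rose (log2 fold change 2.53 ± 0.50, edgeR adjusted p = 0.0365). Its log2 fold change in CD8 KO mice was 2.03 ± 0.48, edgeR adjusted p = 0.0525. In CD4 libraries E2f8 had 34.5, 7.21 and 93.7 CPM in KO lymphoma, against 7.46, 22.2 and 8.92 CPM in KO controls. The lowest of these lymphoma values lay below all KO controls. E2f8 had 11.6, 12.4 and 25.5 CPM in CD4 WT lymphoma, against 2.86, 1.73 and 4.95 CPM in CD4 WT controls. Cdk6 lymphoma values lay above all control values in CD8 WT, CD4 KO and CD4 WT mice and overlapped with them in CD8 KO mice. Rb1 was lower in CD8 than CD4 WT controls (log2 fold change -0.83 ± 0.16, edgeR adjusted p = 0.00307) and KO controls (log2 fold change -0.61 ± 0.16, edgeR adjusted p = 0.0259), and Rbl2 in KO controls (log2 fold change -0.47 ± 0.12, edgeR adjusted p = 0.024).

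All fitted changes of the 19 mitosis genes, which act after S phase, were positive in the 4 lymphoma comparisons, and edgeR called 2 in CD8 KO mice. They summed to 1399, 447 and 1199 CPM in CD8 KO lymphoma, against 288, 433 and 230.01 CPM in CD8 KO controls, and to 325, 485 and 674 CPM in CD8 WT lymphoma, against 228.1, 178 and 187 CPM in CD8 WT controls. In CD4 libraries they summed to 873, 481 and 1867 CPM in KO lymphoma, against 340.4, 854 and 388 CPM in KO controls, and to 373, 613 and 868 CPM in WT lymphoma, against 213, 181 and 194 CPM in WT controls. The groups overlapped in CD4 KO mice, where control library 2 stood above lymphoma library 2, and did not overlap in the other 3 comparisons. The 2 calls were Tpx2 (log2 fold change 1.86 ± 0.39, edgeR adjusted p = 0.0449), a spindle assembly factor, and Ube2c (log2 fold change 1.84 ± 0.40, edgeR adjusted p = 0.0495), which marks mitotic proteins for destruction; these 2 were picked out after their values were seen. EdgeR called 0 in CD8 WT, CD4 KO and CD4 WT mice, where 14, 10 and 16 were higher at unadjusted p under 0.05, DESeq2 called 11, 0 and 13 and voom 1, 0 and 0. Their median log2 fold changes were 1.63, 1.41, 1.04 and 1.70 in CD8 KO, CD8 WT, CD4 KO and CD4 WT mice, above those of the replication genes.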

How the data were processed

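Polyadenylated RNA of 24 splenic T cell libraries was measured with 3′ tag (QuantSeq) sequencing. The authors deposited 1 table of whole-number estimated counts per gene; the submitters' processing notes name Salmon 0.11.3 and GRCh38, a human build name for mouse samples, and the annotation and strand setting were not given. Of 34113 genes, 2 with a non-numeric cell were dropped. CPM used plain column totals of 6470482 to 10196062 counts.

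The deposited estimated counts were tested with edgeR 4.0.16 (R 4.3.3; filterByExpr minimum count 10 and total 15, TMM factors 0.903 to 1.08 in CD4 and 0.972 to 1.04 in CD8, quasi-likelihood F test, Benjamini-Hochberg adjustment over all genes tested, adjusted p under 0.05). CD4 and CD8 libraries were fitted separately on 12808 and 12650 genes with 8 residual degrees of freedom each, and CD8 against CD4 on all 24 libraries and 13232 genes with 16. Limma 3.58.1 (voom, weighting each library), DESeq2 1.42.0, other normalizations, other filters (none, or 30 counts in 3 libraries), blocks and left-out libraries were alternatives. The scripts were tested on simulated data. Libraries are pools of mice, and p-values measure the spread between pools.

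CD8 and CD4 libraries of 1 pool share mice, per the labels, and their deviations correlated with r between -0.018 and 0.525 over 12 pairs. Members, lists, rules and tests were chosen with earlier results of these data known. Per-library values are given for members called in any comparison, for the 2 members of each role with the smallest p over the lymphoma comparisons, and for members without overlap in all 4. Gene positions are GENCODE M21 on GRCm38. Promoter windows come from RefSeq on GRCm38.p6; those of called members were shown, and Mcm3 and Mcm6 were added after their values were seen. 1 blood progenitor marker is not reported here and is left out of that list's sums and counts.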

Additional observations from a re-analysis of the deposited data

How the results depend on the processing

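No member count, median or named member reversed its direction under an alternative within the 4 lymphoma comparisons. DESeq2 called 21 members in CD8 KO, 13 in CD8 WT, 4 in CD4 KO and 12 in CD4 WT lymphoma, 1 in CD8 and 1 in CD4 KO against WT controls, and 1 in CD8 against CD4 WT controls. Voom with sample weights called 2 in CD8 KO, 9 in CD8 WT and 3 in CD4 KO lymphoma, and 4 and 1 in CD8 against CD4 KO and WT controls. Counts of all genes for these 2 tools are given with each comparison above. For the other alternatives and the fits without a library they were not computed. A single fit on all 24 libraries called 2 in CD8 KO, 1 in CD8 WT and 4 in CD4 WT lymphoma; upper-quartile normalization called 1 in CD8 KO and 1 in CD8 WT; no filter and the stricter filter each called 4 in CD8 WT. In CD8 KO mice no filter called 3 members and lost Gins2 (edgeR adjusted p = 0.0535) and Lig1 (edgeR adjusted p = 0.0662), and the stricter filter called 6, all 4 named ones among them. Pools of S identifiers alone gave 0 in CD8 KO, with 2 lymphoma libraries against 1 control that is assumed to vary like the other groups, and 0 in CD8 WT lymphoma, with 3 against 2; these counts say nothing about stability. With the replicate number as a block, CD8 KO had 0 calls and CD8 WT 1 (E2f1); the numbers are not stated to pair mice within a co-receptor, and same-numbered libraries correlated with r between -0.142 and 0.322 over 24 pairs. With the mouse pool as a block, the CD8 against CD4 counts were 1 in KO lymphoma, 2 in KO control and 2 in WT control. The pool block was fitted only for the CD8 against CD4 comparisons. Leaving out 1 library gave 0 to 25 calls in CD8 KO, 0 to 6 in CD8 WT, 0 to 8 in CD4 KO and 0 to 3 in CD4 WT lymphoma, 0 to 10 for KO against WT in CD8 lymphoma, and 0 to 2 for CD8 against CD4 in KO lymphoma. Each of the 6 member calls was lost in 5 of 6 such fits. The cause of these shifts was not tested. Mean summed CPM moved by less than 1 SD under TMM scaling, an alternative added after seeing the data, as were the counts without adjustment. Members with few counts, such as Gins1, Pole and Mcm10, limit the precision of their own values.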
